A study of Homo sapiens with 5 samples.

Results

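ZNF genes that lie outside chromosome 19 were described in poly(A)+ RNA from H9, a line of human embryonic stem cells. The members were chosen by 4 conditions on the deposited table: the transcription factor family zf-C2H2, a symbol starting with ZNF, a chromosome other than 19, and a level of 50 normalized counts or more in 2 or more of the 5 samples. Of 33857 listed genes, 198 met the first 3 conditions and 179 also met the level. ZNF717 and ZNF502 were named in the choice because they were lost in the mutants, so their values are a description only. The level was also read from the measured values, and 3 members reached it through 1 group alone. These were ZNF717 and ZNF502 in mock control and ZNF713 in CFIm25-m, while the other 176 reached it in both groups.

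The 2 mock control samples are labelled only as control H9 cells and are taken to be the mock controls of the study. For those the study picked 2 clones of H9 cells that received the eCRISPR vector without a guide. The 3 CFIm25-m samples are taken to be the 3 edited clones of the study. These were grown from single cells after CRISPR-Cas9 editing of CFIm25, a subunit of the mRNA cleavage factor CFIm encoded by NUDT21. The labels call these clones KO or KD, and the study describes them as knockdown or mutant lines. Cultures were selected on puromycin before clones were picked. The cells were grown in mTeSR medium, and no further treatment is stated for these samples. Each sample is taken to stand for 1 clone with its own history, and clone effects and editing effects cannot be told apart within a sample. The labels number the samples without naming a clone or culture, so p-values measure only the spread between these samples. Here m1, m2 and m3 mean CFIm25-m replicates 1, 2 and 3, and their match to the study's clones of those numbers is assumed.

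C2H2 zinc fingers are small folds in which a pair of cysteines and a pair of histidines hold a zinc ion, and a row of fingers reads a stretch of DNA. The human genome carries a large number of such genes, many of them in clusters made by local duplication. Many carry a KRAB domain, which recruits TRIM28 (KAP1) and, through it, H3K9 methylation, and these repress transposable elements and genes near them in stem cells. Others act as activators or architectural factors at promoters.

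The libraries held between 18754108 and 23372391 assigned reads, of which the members took between 0.536% and 0.609%. NUDT21 itself was at 6503 and 6398 normalized counts in mock control and at 4035, 3281 and 3400 in the clones. Undifferentiated stem cell markers were abundant in every sample, with a summed level of 214447 to 218409 in mock control and 188945 to 202216 in CFIm25-m, and 0 of 8 passed the test while 3 had an unadjusted p below 0.05 in limma. The 2 neural, 3 listed mesoderm and 4 endoderm markers summed to 45.1 or less in every sample, and SOX17 and FOXA2 were at 0 or about 1 read. Of the 2 fibroblast markers, COL1A1 gave nearly all of a sum of 8181 to 8714 in mock control and 5750 to 6830 in CFIm25-m, and COL3A1 stayed below 10. The part of these shifts in the results was not tested.

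ZNF717 and ZNF502 are both on chromosome 3, and the 250 bases before their RefSeq start sites (GRCh38.p14) are shown because the signal of both genes was lost while that of the neighbour ZNF501 was not. RefSeq promoters were matched for 147 of the 179 members. Capitals mark any of 5 motifs, each searched on both strands, of which none was found to overlap another in these windows. The CCAAT box is spelled by its name, the GC box is GGGCGG, the ETS-type core is CGGAAG, and the TATA box is TATAAA. The ZNF143-type motif is ACTACANNTCCC, in which N is any base. ZNF717 has 2 listed starts on the minus strand, at chr3:75785550-75785799 and chr3:75785005-75785254, and its sequences are given in gene direction. ZNF502 (chr3:44712410-44712659) and ZNF501 (chr3:44729385-44729634) are on the plus strand.
ZNF717, first start: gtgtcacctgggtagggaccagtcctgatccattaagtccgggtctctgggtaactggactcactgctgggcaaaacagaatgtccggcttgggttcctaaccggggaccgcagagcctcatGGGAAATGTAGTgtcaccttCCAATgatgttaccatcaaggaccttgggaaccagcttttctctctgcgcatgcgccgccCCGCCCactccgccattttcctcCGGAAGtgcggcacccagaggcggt
ZNF717, other start: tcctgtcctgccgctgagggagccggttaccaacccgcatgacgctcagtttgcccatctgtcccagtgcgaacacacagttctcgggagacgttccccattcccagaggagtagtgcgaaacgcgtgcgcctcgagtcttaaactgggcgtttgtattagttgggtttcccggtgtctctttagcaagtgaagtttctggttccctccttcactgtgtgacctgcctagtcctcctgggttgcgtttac
ZNF502: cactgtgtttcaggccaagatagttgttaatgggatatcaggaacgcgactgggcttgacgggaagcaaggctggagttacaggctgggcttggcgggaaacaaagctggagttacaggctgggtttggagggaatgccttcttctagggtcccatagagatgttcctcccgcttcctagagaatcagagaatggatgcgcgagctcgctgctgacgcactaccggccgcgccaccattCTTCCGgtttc
ZNF501: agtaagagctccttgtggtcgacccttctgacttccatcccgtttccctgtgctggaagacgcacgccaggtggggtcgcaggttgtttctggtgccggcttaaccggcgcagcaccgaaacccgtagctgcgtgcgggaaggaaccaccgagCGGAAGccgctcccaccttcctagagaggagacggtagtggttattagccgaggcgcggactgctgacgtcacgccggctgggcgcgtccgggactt

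The first ZNF717 window held a ZNF143-type motif, CCAAT, a GC box and an ETS-type core, and the other window held none of them. The ZNF502 and ZNF501 windows held only the ETS-type core. Over all 191 member windows the ETS-type core was found in 41.4%, 41.4% of 227 windows of chromosome 19 ZNF genes chosen by the same level, and 16.5% of 35116 windows of all RefSeq promoters. In the same order, a GC box was in 61.3%, 59.5% and 42.6% of windows, CCAAT was in 38.2%, 44.5% and 32.0%, and TATAAA was in 4.71%, 2.64% and 10.7%. The ZNF143-type motif was in 8.90% of member windows, 14.98% of chromosome 19 ZNF windows and 1.67% of all windows. The set of all RefSeq promoters was not limited to genes at that level. The median number of CG pairs (C followed by G) per window was 19 in members, 16 in chromosome 19 ZNF genes and 11 in all windows. The part of level and CG pairs in the motif shares was not tested. A match is a run of letters and not a bound site.

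ZNF717 encodes a zinc finger protein with 18 finger matches and a KRAB-like match in its longest reading frame. It was at 203 and 152 normalized counts in mock control and at 6.01, 5.40 and 15.4 in m1, m2 and m3. Every clone was far below both controls, and m3 was the highest of the clones. The libraries held 176 and 157 reads of the gene in the controls and 6, 6 and 16 in the clones. The pooled control level was 29.1 times that of m1 (95% exact interval 13.2 to 79.8), 32.4 times that of m2 (14.7 to 88.9) and 11.4 times that of m3 (6.90 to 20.1), intervals that cover counting error only. The log2 difference was -4.29 on the log2(value + 1) scale, which understates changes of low genes. Of its transcript windows of 75 bases, 2.21% were shared with another gene.

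The RT-qPCR primers designed for ZNF717 are shown because an exact search of the GENCODE transcripts placed each of them in ZNF717 alone. The product they span there is 132 bases long.
ZNF717-F1: gccaacttgctgtagaaagtct
ZNF717-R1: ggcatcttgcactgtagcataag

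ZNF502 has 14 finger matches and no KRAB-like match. It was at 86.4 and 121 normalized counts in mock control, at 6.01 in m1, at 0 in m2 and at 1.92 in m3. The groups did not overlap, and the reads behind the values were 75 and 125 in the controls and 6, 0 and 2 in the clones. The control mean was 38.3 times the floor of 3 reads in the m2 library, and the exact interval of the pooled reads put the controls at least 31.3-fold higher than m2. The pooled control level was 17.5 times that of m1 (7.89 to 48.2) and 54.6 times that of m3 (14.9 to 454). These intervals cover counting error only, not the spread between the controls, and describe a gene that was chosen for its loss. The fitted log2 difference of -5.24 depends on the pseudocount.

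ZNF572, on chromosome 8, was low in some clones only. It was at 55.3 and 52.1 normalized counts in mock control, at 5.01 in m1, at 63.9 in m2 and at 1.92 in m3. Clones m1 and m3 were below both controls and m2 was above both, so the groups overlapped. The library reads were 48 and 54 in the controls and 5, 71 and 2 in the clones. Its log2 difference was -2.39 ± 1.02 (SE) with a limma adjusted p of 0.306. It was -1.14 in edgeR (adjusted p = 0.579) and -1.18 in DESeq2 (adjusted p = 0.848). It was -3.71 without m2, the clone that differs (limma adjusted p = 0.0194), and -1.47 without m3 (adjusted p = 0.358), and over all alternatives the adjusted p ran from 0.0194 to 0.852. ZNF572 and ZNF23 were the members nearest to the level on the inside, with a second highest value of 55.3 and 61.6. ZNF19 and ZNF596 were nearest on the outside, with 45.2 and 44.1.

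**Figure D1:**
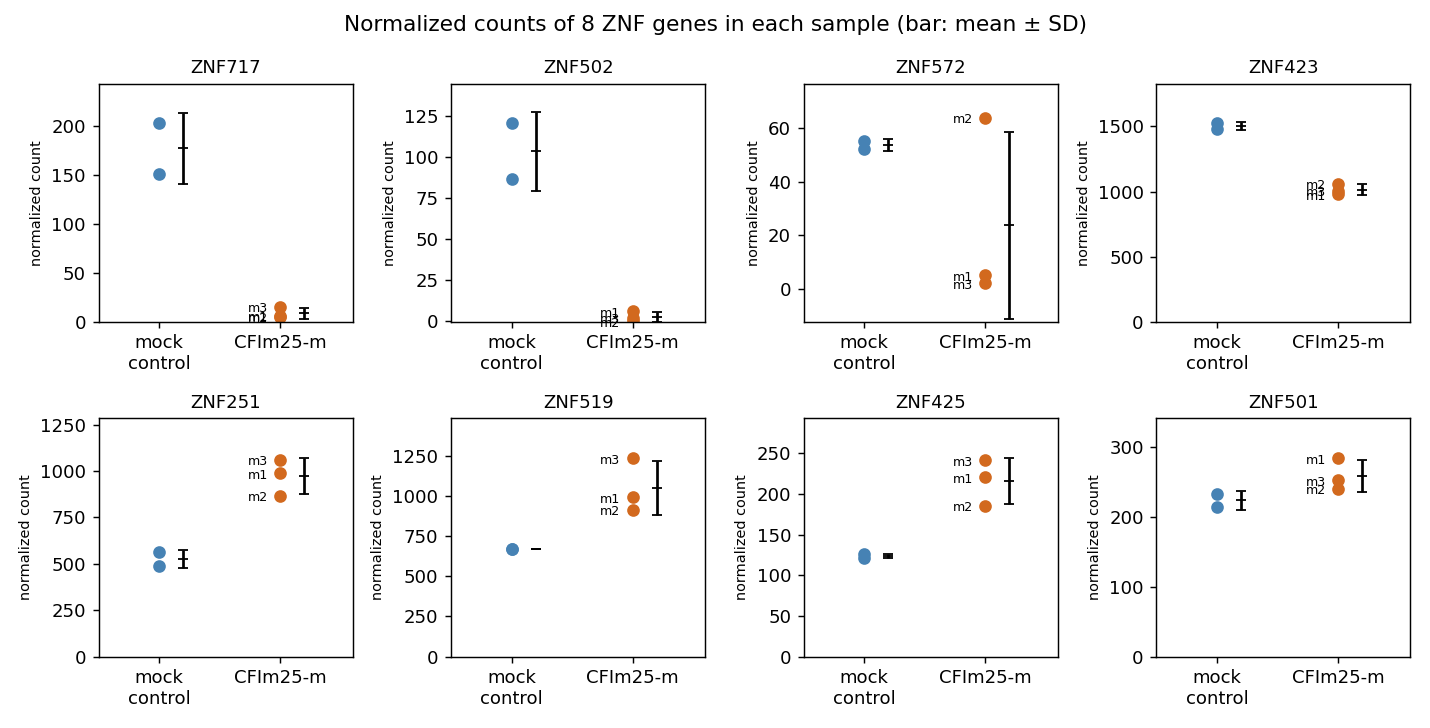
Normalized counts (vertical axis, from 0 or below where an error bar reaches there) of 8 genes in the 2 mock control and 3 CFIm25-m samples, with the mean ± SD beside each group and clones marked m1 to m3. ZNF717 and ZNF502 lie near 0 in every clone, ZNF572 does so in m1 and m3 but not in m2, and ZNF501 stays at 213 to 284.

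The neighbourhoods of the lost genes did not fall with them. Among the 5 nearest tested genes on each side of ZNF502 the median log2 difference was 0.05, with a range of -0.18 to 0.54 and no gene called by limma. ZNF501, which starts 17.0 kb from ZNF502, was at 233 and 213 normalized counts in mock control and at 284, 239 and 252 in the clones, all of them above both controls. ZNF35 was at 302 and 334 against 330, 263 and 322, and ZNF197, a SCAN and KRAB protein gene, was at 543 and 565 against 647, 514 and 716. These genes belong to a run of 7 members on chromosome 3 whose neighbours lie within 500000 bases of each other. Their median log2 difference was -0.07 with ZNF502 included.

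Around ZNF717 the 10 nearest tested genes had a median log2 difference of 0.07 and a range of -0.17 to 1.57, but few lie close by. ROBO1, GBE1, CADM2 and VGLL3 start between 2919 and 11198 kb from the start of ZNF717. CADM2, a synaptic adhesion gene, was the one called and lies 9280 kb away, at 237 and 241 normalized counts in mock control and 446, 425 and 328 in the clones (log2 difference 0.72 ± 0.16 (SE), limma adjusted p = 0.0498). Over the alternatives its adjusted p ran from 8.67e-07 to 0.401, and it was called in 7 of 15. LINC00960, which overlaps ZNF717 on the opposite strand, was at 86.4 and 86.9 against 106, 150 and 159, with all clones above both controls and an adjusted p of 0.191. The strand setting of the counting is not given in the sources used here, so reads in the shared stretch cannot be assigned to 1 strand. DUX4L26, on the far side of LINC00960, was at 10.4 and 17.4 against 38.1, 27.9 and 69.3. ROBO2, which starts 228 kb away on the other side of ZNF717, was at 182 and 160 against 251, 239 and 284 (limma adjusted p = 0.0948). In DUX4L26 and ROBO2 too, every clone was above both controls, and neither was called. LINC02018, FAM86DP and ALG1L6P, which start 243 to 264 kb away, had log2 differences of -0.14, -0.12 and 0.04.

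Beyond these, calls among the members were few, as they were among all tested genes. All 179 passed the filter on low values and were tested with limma among 19232 genes. Of the 176 that reached the level in both groups, 1 fell and 3 rose, where 0.936% of all tested genes were called lower and 0.941% were called higher. Over all 179, the called lower genes also include ZNF717 and ZNF502, on which the choice rests. The edgeR quasi-likelihood test on recovered reads called 0.905% of genes lower and 0.905% higher, and among members it called ZNF423 lower and ZNF251 higher beside the chosen pair. DESeq2 called 1.46% lower and 1.81% higher, and among members it called ZNF423 lower and 7 genes higher. The median log2 difference of the members was 0.04, against -0.01 over all tested genes. Within 0.5 of 0 were 164 of 179 members and 13011 of the 14255 genes at the same level. An unadjusted p below 0.05 in limma was found for 26 of the 179 members (14.5%), where 15.1% of all tested genes had one. Of the 176 members that reached the level in both groups, 23 had one (13.1%), against 16.5% of the 14255 genes at the same level.

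Among the 176 members that reached the level in both groups, every clone was below both controls for 18 and above both for 35. Among the 14255 genes at the same level, the counts were 3316 and 2249. As shares, those of the 176 members lie below and above those of the 14255 genes, a comparison without a test. Over all 179 members, which include the chosen pair, the counts were 20 and 36, where 19.8% and 17% of all tested genes did so. An exact permutation test of 2 against 3 samples cannot go below p = 0.1, so no such test was run for single genes.

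**Figure D2:**
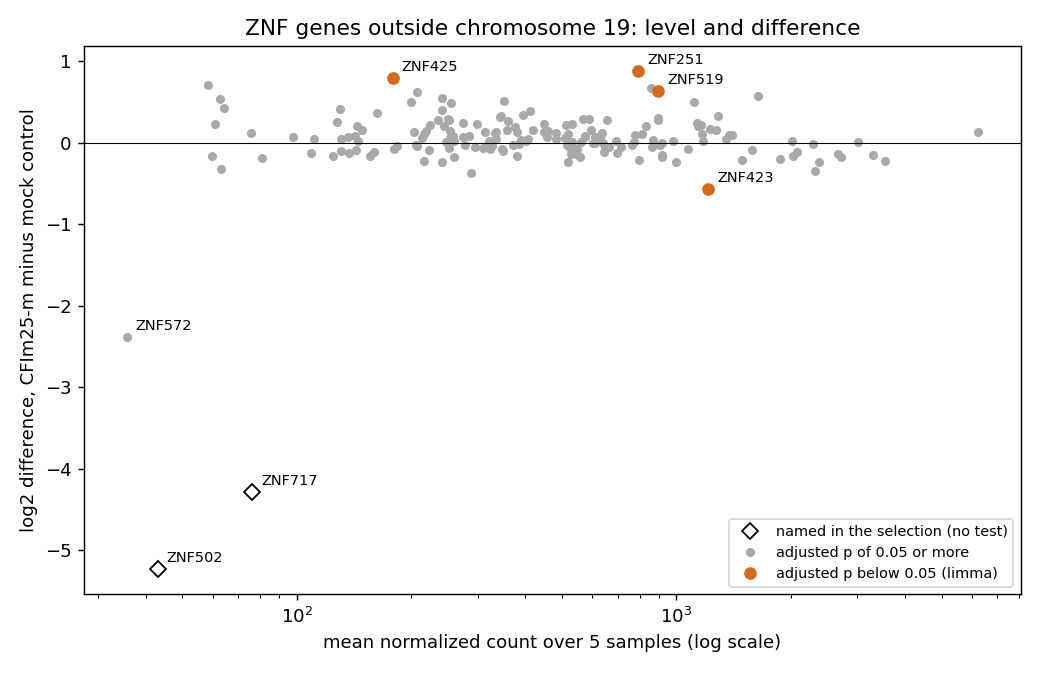
Mean normalized count over the 5 samples (horizontal axis, log scale) against the log2 difference (vertical axis) for the 179 members. Most points lie within 0.5 of 0, ZNF423 and 3 higher genes are the tested calls, and ZNF717, ZNF502 and ZNF572 stand apart at low levels.

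ZNF423, a many-fingered factor of neural and adipocyte development with 27 finger matches, was the called member that fell besides the chosen pair. It was at 1483 and 1524 normalized counts in mock control and at 980, 1058 and 1007 in the clones. The clones lay close together and well below both controls. The log2 difference was -0.57 ± 0.09 (SE, limma adjusted p = 0.0157), and the call was lost without either control or without m1.

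ZNF251, on chromosome 8, had the largest log2 difference of the members called higher. It was at 490 and 562 normalized counts in mock control and at 987, 868 and 1061 in the clones, all above both controls. The log2 difference was 0.88 ± 0.12 (SE, limma adjusted p = 0.0064), and it was called without any 1 clone but not without either control. Its run of 6 members on chromosome 8 had a median log2 difference of 0.22 and included ZNF517, chosen for mention after its values were seen, at 278 and 282 against 393, 383 and 421 (adjusted p = 0.0741).

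ZNF519 was at 670 and 668 normalized counts in mock control and at 991, 915 and 1236 in the clones. Its log2 difference was 0.63 ± 0.13 (SE, limma adjusted p = 0.0437), and 5.85% of its transcript windows were shared with other genes. ZNF425, a KRAB-like gene with 20 finger matches, was at 126 and 122 against 220, 185 and 241. Its log2 difference was 0.79 ± 0.17 (SE, limma adjusted p = 0.0497). Both genes had every clone above both controls, and both lost their call in edgeR and without m1, m2 or either control.

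Role lists of ZNF genes were drawn up, and only the listed genes that are members were counted. Pluripotency and neural progenitor factors had 7 members, of which 1 fell and 0 rose in limma, with 3 at an unadjusted p below 0.05 (15.1% of all tested genes) and a median log2 difference of -0.22. ZNF398, which supports the pluripotent state, was at 2645 and 2670 normalized counts in mock control and at 1951, 2052 and 2262 in the clones, with every clone below both controls (log2 difference -0.35, adjusted p = 0.113). ZNF281, a factor of the NANOG network, was at 2539 and 2656 against 2350, 2285 and 2019 (adjusted p = 0.305). ZNF521, a progenitor factor related to ZNF423, was at 192 and 207 against 324, 276 and 206, so that m3 lay between the controls (adjusted p = 0.359). The list holds ZNF423, already described, and was drawn up with earlier results known.

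Promoter and architectural factors had 6 members, none of them called by limma and none at an unadjusted p below 0.05, with a median log2 difference of -0.01. ZNF143, an activator at promoters and loop anchors, was at 572 and 618 normalized counts in mock control and at 590, 564 and 439 in the clones. ZNF711, an X-linked activator, was at 793 and 780 against 907, 826 and 1171. The 18 SCAN domain members, which share a domain for pairing with each other, had a median of 0.02 with none called by limma and none at an unadjusted p below 0.05. The 6 X-linked members listed had a median of 0.09 with none called and 1 at an unadjusted p below 0.05. Of 6 chromatin partners listed, only ZNF687 and ZNF532 were members. These 2 had log2 differences of -0.20 and 0.13 and were not called, with none at an unadjusted p below 0.05. The 7 RNA, ribosome and spindle factors listed were no members, since the table gives them no transcription factor family.

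The corepressors that KRAB proteins use were measured beside the members. Of 16 tested corepressor and H3K9 silencing genes, 1 fell and 0 rose in limma, with 2 at an unadjusted p below 0.05 (12.5%, near the 15.1% of all tested genes) and a median log2 difference of -0.10. HDAC1, a histone deacetylase, was at 4321 and 4472 normalized counts in mock control and at 3308, 3077 and 3038 in the clones (log2 difference -0.49, limma adjusted p = 0.0265), and the call was lost without either control, m1 or m2. TRIM28 was at 20226 and 21894 against 17229, 20488 and 18947 (adjusted p = 0.542).

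The members with the highest mean normalized counts were ZNF532, ZNF217, ZNF219, ZNF589 and ZNF24, and none was called. ZNF532 averaged 6229, ZNF217, a corepressor-linked factor, 3536 and ZNF24 2712. Per kilobase of listed gene length, ZNF217 led with 572, followed by ZNF589 with 544 and ZNF532 with 521. The median member was at 82.1 per kilobase and the median of the 14255 genes that reach the same level was 115, a comparison without a test.

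The reading frames differed widely among members. Of 178 members with a coding GENCODE transcript, the finger matches ran from 2 in ZNF138 to 36 in ZNF142, with a median of 10. A KRAB-like match, found by short patterns that miss some known KRAB genes, was present in 88 and absent in 90. On chromosome 19, 176 of 204 ZNF genes chosen by the same rule had one. The members with the match had a median log2 difference of 0.08, with 62 above 0 and 26 below, and those without it had 0.01, with 46 above and 44 below.

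The clones did not share this shift. Medians of the members with the match were 0.16 in m1, -0.03 in m2 and 0.18 in m3, and those without it were at 0.03, -0.02 and -0.04. The control samples differed from each other by a median of -0.02 with the match and 0.01 without it. On chromosome 19 the genes with the match were at 0.13, -0.07 and 0.18 in the same clones. The same control samples serve in every one of these values. Across members, the log2 difference had a Spearman correlation of -0.03 with the number of finger matches and of -0.09 with the mean level, each over members that share their libraries.

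**Figure D3:**
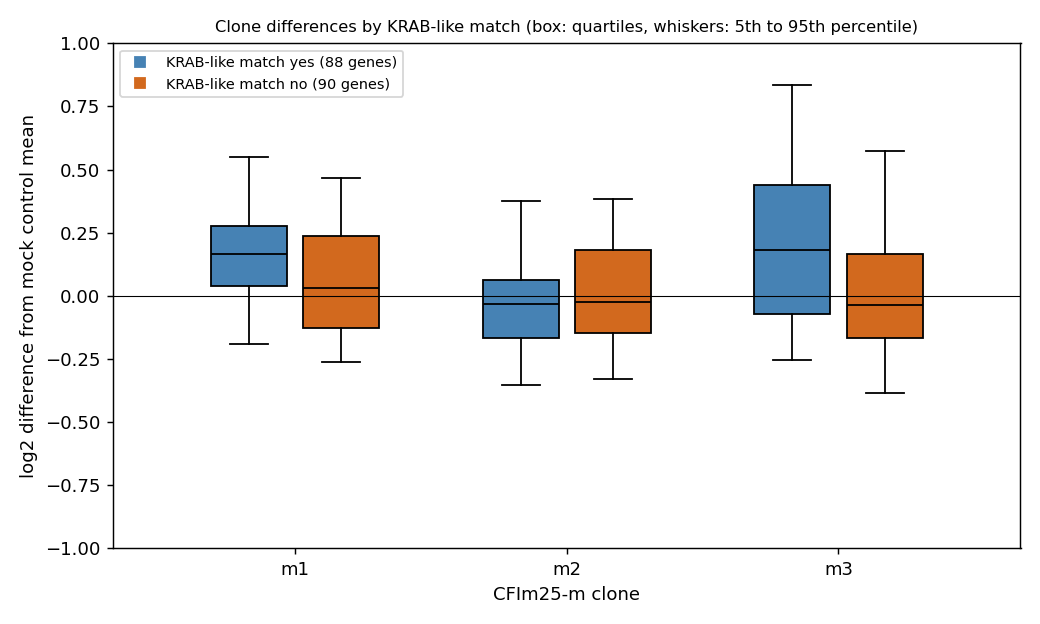
Log2 difference of each clone from the mock control mean (vertical axis) for 88 members with a KRAB-like match and 90 without, as boxes of quartiles with whiskers at the 5th and 95th percentiles. The boxes with the match sit higher in m1 and m3, at medians of 0.16 and 0.18, and near 0 in m2.

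Members that moved by over 2-fold from the control mean were listed for each clone. ZNF502 and ZNF717 were named in the choice, and ZNF713 reached the level through CFIm25-m alone, so their moves are a description. The shares of all tested genes given here also cover genes below the level of the members. By the fitted difference, 266 of 14255 genes at the same level lay beyond 1 log2. So did 3 of the 179 members, and 1 of the 176 that reached the level in both groups. In m1 the members over 2-fold from the control mean were ZNF502, ZNF717 and ZNF572, lower, and ZNF713, higher. Of all tested genes, 5.21% moved that far in m1 in either direction. In m2 only the chosen ZNF502 and ZNF717 did, where 5.42% of all tested genes moved that far. In m3, ZNF502, ZNF717 and ZNF572 were lower and ZNF469, ZNF117 and ZNF251 were higher, with a background of 8.38%. ZNF713 was at 42.6 and 40.5 normalized counts in mock control and at 86.2, 55.8 and 66.4 in the clones, and 22.0% of its transcript windows were shared with other genes. ZNF713, ZNF469 and ZNF117 were named after their values were seen. ZNF117 was at 590 and 658 against 1005, 754 and 1286 (limma adjusted p = 0.123).

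The range of log2 values among the clones had a median of 0.31 over members and of 0.30 over all genes at the same level. It was above 1 for 4 members. ZNF572 had a range of 4.47, ZNF502 of 2.81 and ZNF717 of 1.36, followed by ZNF516 at 1.01. ZNF516, named after its values were seen, was at 310.0 and 353 in mock control and at 410, 600 and 298 in the clones.

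The members lay on 20 chromosomes, led by chromosome 16 with 27, chromosome 7 with 22 and chromosome 3 with 16. Chromosome 12 was the one of over 5 members on which all were above 0, with 11 of 11 and a median log2 difference of 0.18, and none of them was called by limma while 2 had an unadjusted p below 0.05. Its run of 7 genes, from ZNF605 to ZNF268, had clone medians of 0.22, -0.06 and 0.41, so that m2 did not share the direction. In that run ZNF140 shared 81.4% of its transcript windows with ZNF891, and their counts are uncertain. The 11 members of a run on chromosome 16 from ZNF48 to ZNF646 had a median of 0.03 and a range of -0.13 to 0.53.

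**Figure D4:**
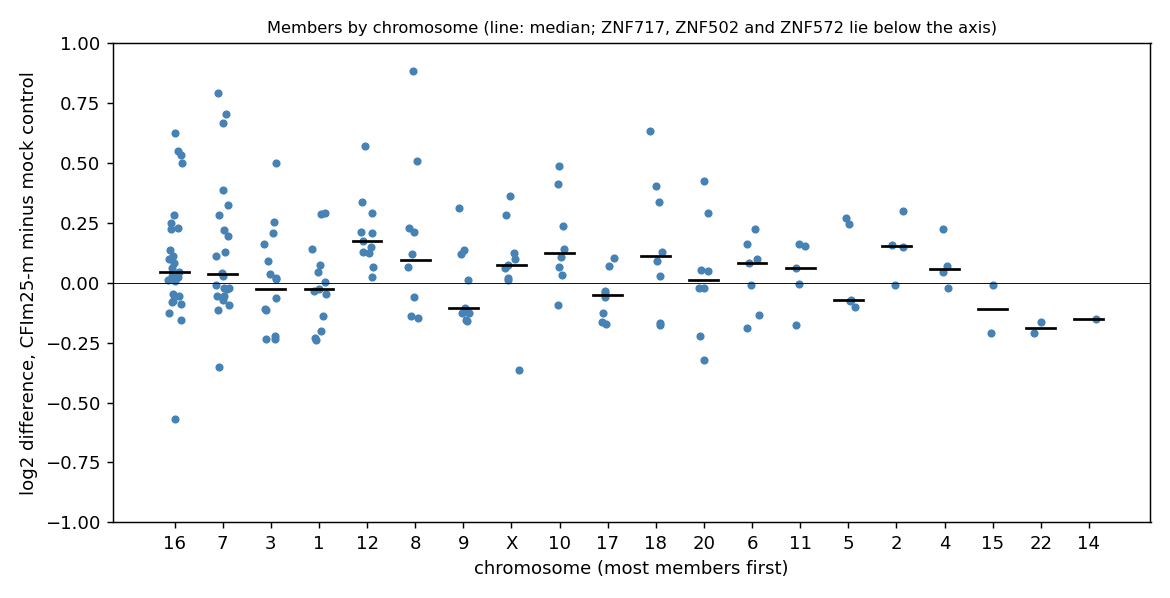
Log2 difference (vertical axis, cut at -1 and 1) of each member by chromosome, ordered by number of members, with a line at the median. All 11 members of chromosome 12 lie above 0, and the 3 members ZNF717, ZNF502 and ZNF572 fall below the axis.

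The ZNF genes of chromosome 19 were chosen by the same rule. Of 204, limma called 0 lower and 2 higher, with a median log2 difference of 0.06. An unadjusted p below 0.05 in limma was found for 18 of them (8.82%). It was found for 13.1% of the 176 members that reached the level in both groups and 16.5% of all genes at the same level. The 124 other zf-C2H2 genes at the same level had 3 lower and 2 higher and a median of -0.02. The differences between these groups were not tested. Some members share sequence: 33 had over 10% of their 75-base windows in common with another gene, and 94 overlapped a gene on the opposite strand, and their counts are less certain for that reason.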

How the data were processed

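Poly(A)+ RNA of 2 mock control and 3 CFIm25-m H9 samples was analysed, with groups taken from the labels. The authors deposited normalized counts, a signal in which the gene reads of a library are scaled by its size factor. HISAT2, featureCounts, Subread, DESeq2 and hg38 are named in the submitters' processing notes without versions, and a strand setting is not given in the sources used here. The deposited log2 fold changes and p-values are the authors' own comparison and were not used. Values were whole multiples of 1 step per sample within a tolerance of 0.01 reads for 100% of values, which gave whole reads.

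The main test was limma 3.58.1 with a trend (R 4.3.3) on log2(value + 1), over 19232 genes at 10 or more in at least 2 samples, with Benjamini-Hochberg adjustment and a threshold of 0.05. edgeR 4.0.16 and DESeq2 1.42.0 on recovered reads were alternatives. The tests were also run on simulated data, with planted changes larger than those of ZNF423, ZNF251, ZNF519 and ZNF425. Recovery of changes of their size was not tested. Finger and KRAB-like matches came from the longest reading frames of GENCODE transcripts, in place of a protein table. Genes named were ZNF717, ZNF502, called members, the 5 highest, the 3 with the widest clone range, those at the threshold, and role lists. Members and lists were chosen with earlier results of these data known.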

Additional observations from a re-analysis of the deposited data

How the results depend on the processing

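The count of members called lower was 3 and the count called higher 3, against 0.936% and 0.941% of all tested genes. Of the 3 lower, ZNF717 and ZNF502 were named in the choice. Members called higher numbered 1 without a filter on low values, 1 with edgeR and 7 with DESeq2. The shares of all tested genes called higher there were 0.455%, 0.905% and 1.81%. limma without a trend called 0 lower and 0 higher, against 0.13% and 0.109% of all tested genes. In it 19 members were at an unadjusted p below 0.05. The replicate numbers do not pair the samples, since clones differ in origin and same-numbered samples had correlations of deviations of 0.0072 and 0.018, and a replicate block, in which m3 has no partner and adds nothing to the difference, called 7 lower and 13 higher, against 5.53% and 5.42% of all tested genes. Leaving out 1 clone at a time gave between 2 and 4 members lower, the chosen pair among them each time, and between 1 and 9 higher. The shares of all tested genes ran from 0.52% to 2.77% lower and from 0.312% to 2.79% higher. The count called higher was 0 without mock control replicate 1 and 0 without mock control replicate 2, with 12 and 14 members at an unadjusted p below 0.05 in limma, 1 without m1 and 9 without m3, where 2.79% of all tested genes were called higher. The count called lower was 1 without mock control replicate 2. The cause of these changes in count was not tested. The median log2 difference of the members was 0.04 and ran from 0.03 to 0.11, the last under scaling by library total, where the median of all genes moved from -0.01 to 0.06. These moves are smaller than the SD of the clone medians, 0.07, which is larger than the median itself. No alternative run turned the direction of ZNF717, ZNF502, ZNF423, ZNF251, ZNF519, ZNF425, CADM2 or HDAC1. Precision is limited by 2 control samples and, for ZNF717, ZNF502 and ZNF572, by few reads.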
